A study of Mus musculus with 10 samples.

Results

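The genes described here carry, make or sense retinoic acid, the active form of vitamin A. They were chosen by gene symbol in the platform annotation: Crabp1 and Crabp2 (intracellular retinoic acid-binding proteins), Rbp4 (the retinol carrier of blood), Aldh1a1, Aldh1a2 and Aldh1a3 (enzymes that oxidise retinal to retinoic acid), and Rara, Rarb and Rarg (nuclear retinoic acid receptors). These 9 genes had 12 probe sets among 45101 on the array, 3 of them for Aldh1a3 and 2 for Rarg. They are 9 of 18193 genes that could be named. Irradiation was followed in distal colorectum, about 1 cm above the anus, of C57BL/6J mice. The groups were Pdgfc-/- mice (knockout) with irradiation (n = 3), Pdgfc+/+ mice (wild type) with irradiation (n = 3), knockout mice without irradiation (n = 2) and wild-type mice without irradiation (n = 2). Irradiated mice received 25 Gy of local γ-rays at 2.14 Gy/min, and the tissue of irradiated and control mice was taken 8 weeks after that. Pdgfc encodes a secreted growth factor for mesenchymal cells; how its allele was made, and the age of the mice, are not given in the sources used here.

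Cells take up retinol, oxidise it to retinal through retinol dehydrogenases, and oxidise retinal to retinoic acid through the ALDH1A enzymes. Retinoic acid then binds receptors that sit on DNA as pairs with retinoid X receptors, and CYP26 enzymes break it down. CRABP2 is known to deliver retinoic acid to the receptors, and FABP5 is an alternative carrier. In the intestine the pathway is known for guiding lymphocyte homing and epithelial differentiation, and in stratified squamous epithelium for restraining keratinisation.

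Retinoic acid receptors bind direct repeats of a hexamer, and Rarb is a textbook target of its own ligand. Crabp2 and Aldh1a3 had no promoter window in the RefSeq table used here and were not searched. The other 7 of the 9 genes had such windows (GRCm38.p6, 250 bases before to 50 after a transcript start). These windows were searched on both strands for the consensus hexamer AGGTCA, its variant AGTTCA, the variant GGGTCA or the variant GGTTCA, followed in the same direction by another of these 4 hexamers, 1, 2 or 5 bases apart. Such a repeat was found in the window of Rarb and in none of the windows of Crabp1, Rbp4, Aldh1a1, Aldh1a2, Rara and Rarg. Of all 32851 windows of the table, 0.588% held a repeat at any of the 3 spacings and 0.0974% held one with a spacing of 5 bases. The Rarb repeat had the 5-base spacing and began 53 bases before the start. It is shown here, in capitals and with its flanks, as the only sequence match among the 7 genes searched (chr14:16575477-16575569, minus strand, 5′ to 3′):
Rarb: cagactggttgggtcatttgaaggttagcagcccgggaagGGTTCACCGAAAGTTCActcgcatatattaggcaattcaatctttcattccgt
The match describes letters in this window and does not show binding in these mice.

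Levels are the authors' MAS5 signals on a log2 scale, so 1 unit is a 2-fold difference. Array medians lay between 6.64 and 7.18, and signals below the median of their array are imprecise. Differences come from a limma fit across 12568 genes, with Benjamini-Hochberg adjustment and a threshold of 0.05. Because the 9 genes were picked with results of these same contrasts known, their values are a description, and being past the threshold is reported without a p-value and supports nothing further. In wild type, the transcript pattern of sex ran together with irradiation: the female-specific RNA Xist had a log2 signal of 13.81 to 14.18 after irradiation, against 6.52 and 6.19 without it. In knockout, Xist was high on irradiated replicate 1 (13.48) and low on every other array. A sign of RNA quality also moved with irradiation: the log2 signal of the 3′ Gapdh control probe set minus that of the 5′ one was -0.47 to -0.35 in irradiated knockout and -0.54 to -0.41 in irradiated wild type, against -0.23 to -0.22 in unirradiated knockout and -0.32 to 0.02 in unirradiated wild type. The irradiated and unirradiated arrays did not overlap in it, and its part in the irradiation differences was not tested. The irradiated arrays also carried more stratified squamous epithelium signal. The mean log2 signal of 26 measured of 27 listed squamous markers (keratins such as Krt5 and Krt14, cornified envelope genes and the transcription factor Trp63) was 12.31, 10.73 and 11.76 on irradiated knockout arrays and 11.76, 11.61 and 8.94 on irradiated wild-type arrays. It was 5.90 and 5.58 on unirradiated knockout arrays and 5.68 and 6.32 on unirradiated wild-type arrays. The log2 of the summed signal of these markers ranged from 16.31 to 17.76 in irradiated knockout and from 15.90 to 17.26 in irradiated wild type, against 13.71 to 13.72 in unirradiated knockout and 13.99 to 14.26 in unirradiated wild type. In these bulk samples more cells of a type and more RNA per cell cannot be told apart.

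**Figure D1:**
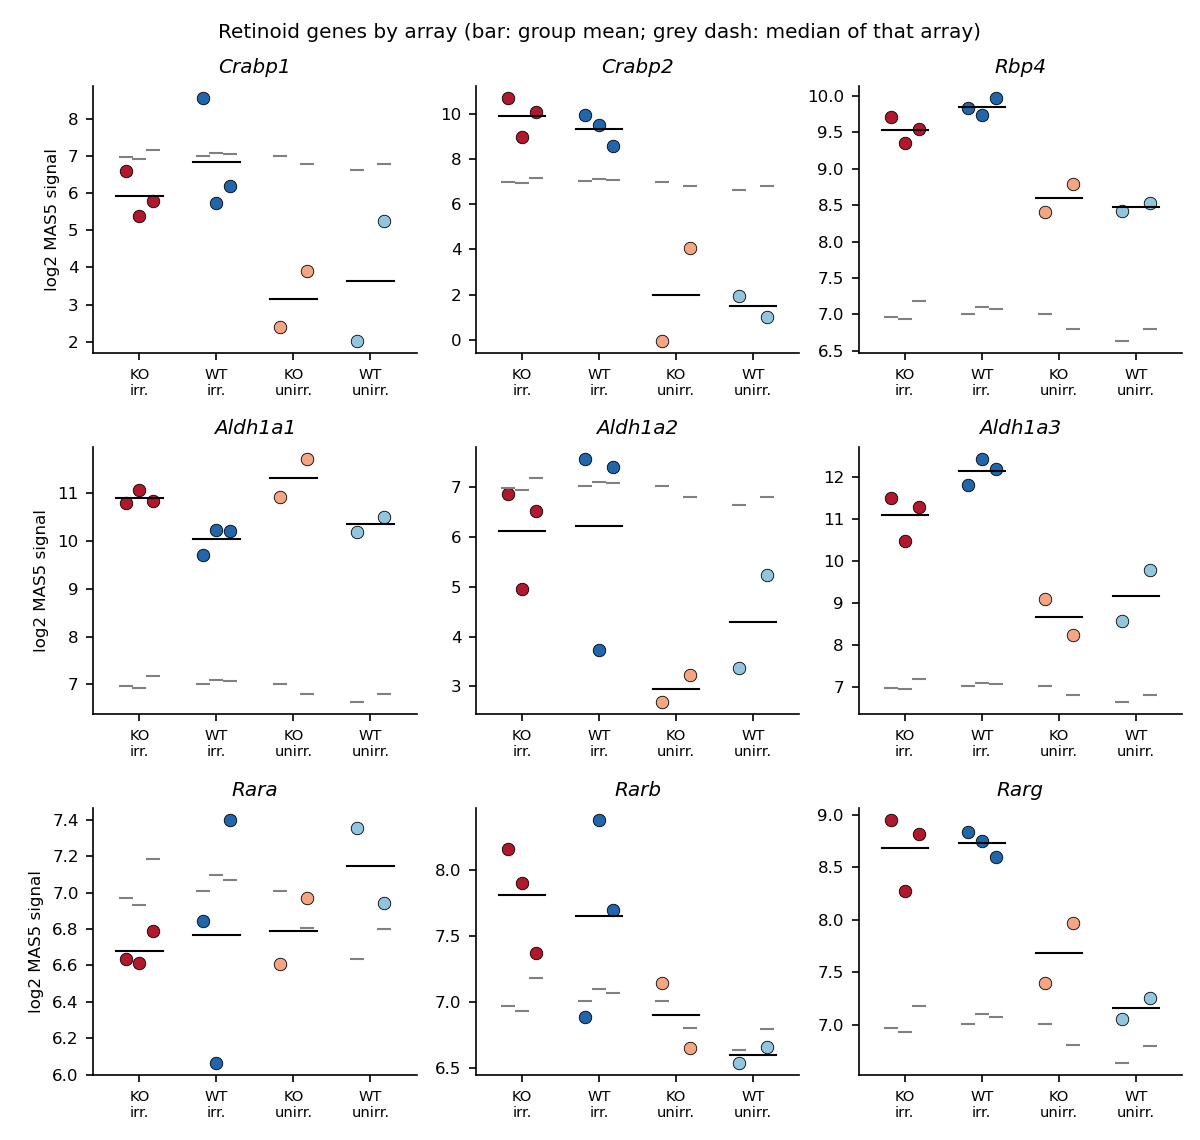
Log2 MAS5 signal (vertical axis, scaled for each gene) of the 9 genes by group, for the probe set with the highest mean; points are arrays, black bars are group means and grey dashes are the median of the same array. Crabp2, Rbp4, Aldh1a3 and Rarg were higher on all 6 irradiated arrays than on the 4 unirradiated ones, while Aldh1a1 was higher in knockout than in wild type in both conditions.

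Irradiated and unirradiated tissue differed for 4 of the 8 genes tested, the same ones in both genotypes: Crabp2, Aldh1a3, Rarg and Rbp4, all higher after irradiation. Among all genes tested, 23.5% were past the threshold in knockout and 24.1% in wild type; 14.0% and 15.8%, in that order, were higher, and 9.54% were higher in both. None of the 9 genes was lower past the threshold, against 9.50% of all genes in knockout and 8.34% in wild type. The median log2 difference of the 8 genes was 0.96 in knockout and 1.47 in wild type, beside 0.01 and 0.07 over all genes tested. The count in wild type was 0 when the sex transcript pattern was a covariate, a fit in which sex can be told from irradiation only through irradiated knockout, with 1 of 3 arrays of the female pattern; among all genes the wild-type count was then 16. The wild-type differences were then 6.72 for Crabp2, 2.33 for Aldh1a3, 1.10 for Rbp4 and 1.17 for Rarg, each smaller than without the covariate and of the same sign. Crabp1 did not pass the filter on low values, which asks for 2 or more arrays with a signal above their own median, and was not tested.

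Crabp2 had the largest irradiation difference of the 8 genes tested. Its log2 signal was 10.70, 8.99 and 10.10 in irradiated knockout, 9.97, 9.49 and 8.60 in irradiated wild type, -0.06 and 4.04 in unirradiated knockout, and 1.95 and 1.01 in unirradiated wild type. All 6 irradiated arrays lay above their array median and all 4 unirradiated arrays far below it, so the gene passed the filter only through the irradiated groups. The difference was 7.94 ± 1.04 (SE) in knockout and 7.88 ± 1.04 (SE) in wild type. Its size depended on how dim signals are treated: with 64 added to every linear signal it was 3.86 in knockout and 3.43 in wild type. Without irradiated knockout replicate 1, which leaves only arrays of the male pattern in that comparison, it was 7.55, past the threshold. Among irradiated arrays Crabp2 was lowest on wild-type replicate 3, the one with the lowest squamous marker signal. The same array also had the lowest mean of striated muscle markers (5.02) and of hair follicle and sebaceous gland markers (5.13) among irradiated arrays. Without that array the wild-type difference was 8.25.

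Crabp1, the other binding protein, was dim throughout. On the log2 scale Crabp1 was at 6.61, 5.40 and 5.80 in irradiated knockout, 8.57, 5.75 and 6.21 in irradiated wild type, 2.39 and 3.90 in unirradiated knockout, and 2.02 and 5.26 in unirradiated wild type. Only wild-type replicate 1 after irradiation was above its array median. Every irradiated array was above every unirradiated one, in a range where MAS5 values have little precision. Crabp1 and Crabp2 therefore could not be compared for response.

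Rbp4 was bright on all 10 arrays. The log2 signal of Rbp4 was 9.72, 9.35 and 9.54 in irradiated knockout, 9.83, 9.74 and 9.97 in irradiated wild type, 8.41 and 8.80 in unirradiated knockout, and 8.42 and 8.53 in unirradiated wild type. The irradiated and unirradiated ranges were apart in both genotypes. The difference was 0.93 ± 0.18 (SE), or 1.91-fold, in knockout and 1.37 ± 0.18 (SE), or 2.59-fold, in wild type. In knockout it was 0.74 and not past the threshold without unirradiated replicate 1. RBP4 is made chiefly by liver and fat, and adipocyte markers were also higher on the irradiated arrays. The mean of 13 measured of 15 listed adipocyte markers was 8.15 to 10.19 in irradiated knockout and 9.03 to 10.39 in irradiated wild type, against 6.80 to 7.44 in unirradiated knockout and 6.46 to 6.61 in unirradiated wild type. Their summed signal (log2) was 14.48 to 15.78 and 15.23 to 16.02 in the irradiated groups, in the same order, against 13.04 to 13.40 and 11.87 to 12.18; their part in the Rbp4 difference was not tested.

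The 3 enzymes that make retinoic acid did not behave alike. Aldh1a3 was higher after irradiation on each of its 3 probe sets. On the brightest its log2 signal was 11.50, 10.46 and 11.28 in irradiated knockout, 11.79, 12.42 and 12.18 in irradiated wild type, 9.09 and 8.24 in unirradiated knockout, and 8.56 and 9.77 in unirradiated wild type. The lowest irradiated array was above the highest unirradiated one. The difference was 2.42 ± 0.42 (SE), or 5.34-fold, in knockout and 2.96 ± 0.42 (SE), or 7.80-fold, in wild type. The other probe sets gave 3.49 ± 0.48 (SE) and 2.96 ± 0.49 (SE) in knockout and 3.31 ± 0.48 (SE) and 2.17 ± 0.49 (SE) in wild type when every probe set was tested, all past the threshold.

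**Figure D2:**
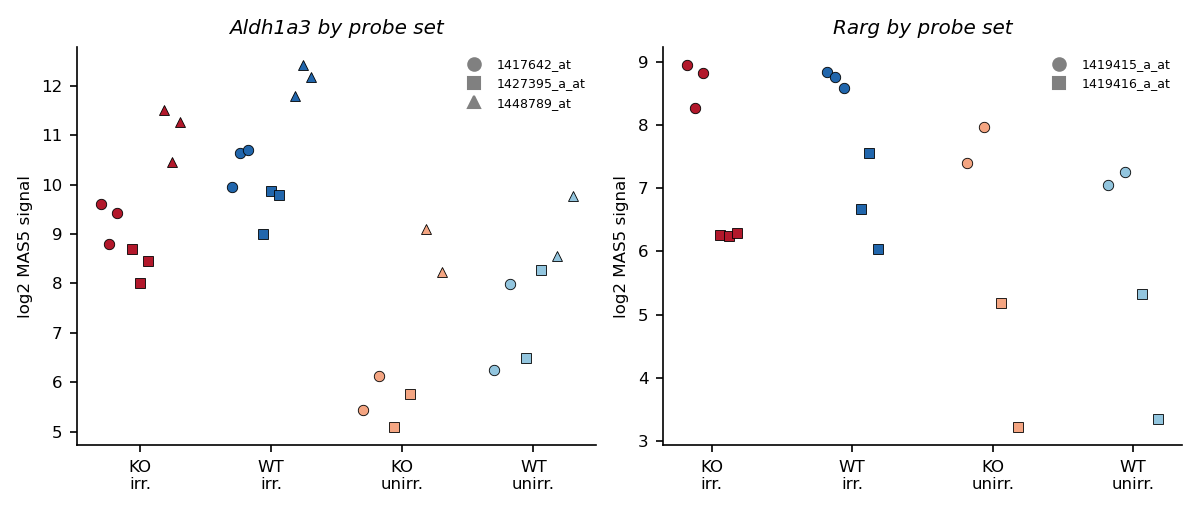
Log2 MAS5 signal (vertical axis) by group for the 3 probe sets of Aldh1a3 (left) and the 2 of Rarg (right), with 1 point per array. On every Aldh1a3 probe set the 3 irradiated knockout arrays lay below the 3 irradiated wild-type arrays.

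Aldh1a1 did not follow Aldh1a3. On the log2 scale Aldh1a1 was at 10.79, 11.06 and 10.83 in irradiated knockout, 9.70, 10.22 and 10.20 in irradiated wild type, 10.91 and 11.71 in unirradiated knockout, and 10.19 and 10.51 in unirradiated wild type. The irradiated and unirradiated ranges overlapped in both genotypes. The irradiation difference was -0.42 ± 0.25 (SE) in knockout and -0.31 ± 0.25 (SE) in wild type, neither past the threshold. Aldh1a1 has a closely related mouse paralogue, Aldh1a7, and a probe set of one may also bind RNA of the other.

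Aldh1a2, the enzyme known from mesoderm, mesothelium and intestinal dendritic cells, was below the median on 8 of 10 arrays. The 2 arrays above it were irradiated wild type, so the gene passed the filter only through that group. The log2 signal of Aldh1a2 was 6.86, 4.95 and 6.52 in irradiated knockout, 7.55, 3.72 and 7.39 in irradiated wild type, 2.69 and 3.22 in unirradiated knockout, and 3.36 and 5.24 in unirradiated wild type. Irradiated wild-type replicate 2 lay inside the unirradiated range, and the knockout ranges were apart. The differences of 3.16 ± 1.28 (SE) in knockout and 1.92 ± 1.28 (SE) in wild type were not past the threshold; the knockout one was when irradiated wild-type replicate 2, which adds to the shared spread, was left out. The knockout difference was 1.88 with 16 added to every linear signal and 0.95 with 64 added. The mean of 11 measured of 12 listed dendritic cell markers was 7.25 to 8.20 and 7.68 to 8.19 in irradiated knockout and wild type. Without irradiation it was 6.21 to 6.46 and 6.51 to 6.57, and 4 to 5 of the 11 lay above the array median. The mean of 10 mesothelium markers was 6.81 to 7.04 and 6.93 to 8.11 in the irradiated groups, against 5.82 to 6.18 and 5.49 to 5.91. Their summed signal (log2) was lower after irradiation, at 13.93 to 14.36 and 14.12 to 14.22, against 14.37 to 14.76 and 14.46 to 14.96. Of the 10, only 2 lay above the array median on each unirradiated array, against 3 to 6 and 4 to 6 after irradiation. The sum therefore rests on few bright genes and cannot be read as the signal of mesothelium. The part of either cell type in the Aldh1a2 differences was not tested.

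The receptors also differed from each other. Rarg, the main retinoic acid receptor of epidermis, was higher after irradiation: its log2 signal was 8.95, 8.27 and 8.82 in irradiated knockout, 8.83, 8.75 and 8.59 in irradiated wild type, 7.40 and 7.97 in unirradiated knockout, and 7.05 and 7.25 in unirradiated wild type. The groups did not overlap in either genotype. The difference was 0.99 ± 0.26 (SE), or 1.99-fold, in knockout and 1.57 ± 0.26 (SE), or 2.97-fold, in wild type. In knockout it was no longer past the threshold without irradiated replicate 1 (0.86), irradiated replicate 3 (0.92) or unirradiated replicate 1 (0.71), nor with the replicate number as a block, the sex pattern as a covariate, or only the 2 knockout groups in the fit. With the mean of both probe sets it was 1.53, past the threshold. The dimmer probe set averaged 6.26 ± 0.02 in irradiated knockout and 6.75 ± 0.76 in irradiated wild type (SD, n = 3 each), and 4.20 ± 1.38 in unirradiated knockout and 4.33 ± 1.40 in unirradiated wild type (SD, n = 2 each); it lay above the median on 1 array and was not tested.

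Rarb, whose promoter stretch is printed above, was near the array median. Its log2 signal was 8.16, 7.90 and 7.37 in irradiated knockout, 6.89, 8.38 and 7.70 in irradiated wild type, 7.15 and 6.65 in unirradiated knockout, and 6.54 and 6.66 in unirradiated wild type. Each irradiated group lay above the unirradiated group of its genotype. The differences of 0.91 ± 0.43 (SE) in knockout and 1.06 ± 0.43 (SE) in wild type were not past the threshold; without irradiated wild-type replicate 1 the wild-type difference was.

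Rara, the receptor expressed in most tissues, had overlapping groups. Its log2 signal was 6.63, 6.61 and 6.79 in irradiated knockout, 6.84, 6.06 and 7.40 in irradiated wild type, 6.61 and 6.97 in unirradiated knockout, and 7.35 and 6.94 in unirradiated wild type. The differences were -0.11 ± 0.41 (SE) in knockout and -0.38 ± 0.41 (SE) in wild type. The signal was above the array median on 4 of 10 arrays and lowest on irradiated wild-type replicate 2, at 6.06. Across the 8 genes tested, irradiated and unirradiated arrays did not overlap for 6 in knockout and 5 in wild type, all higher after irradiation and none lower. Of all genes, 54.0% were apart in knockout (28.4% higher, 25.6% lower) and 53.6% in wild type (30.8% higher, 22.8% lower).

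**Figure D3:**
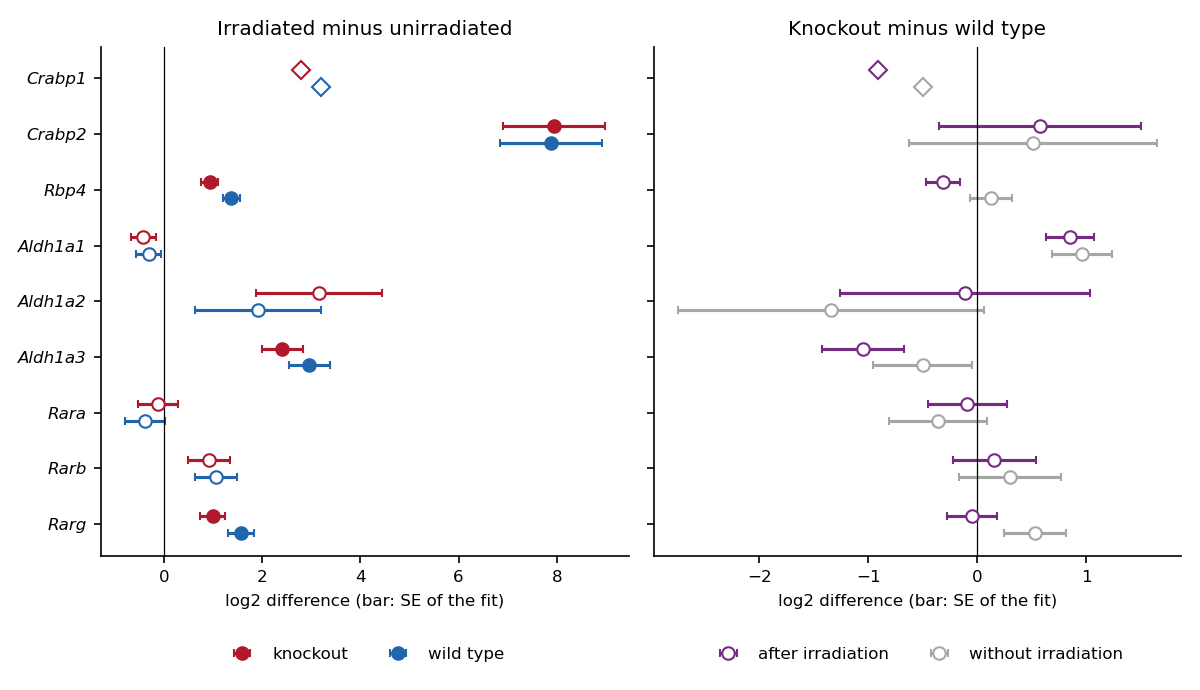
Log2 differences (horizontal axis) of the 9 genes, irradiated minus unirradiated on the left and knockout minus wild type on the right. Circles carry the SE of the limma fit and are filled where past the threshold; diamonds mark Crabp1, which was not tested. Crabp2 stands farthest to the right on the left side, at 7.94 in knockout and 7.88 in wild type, and no genotype difference is filled.

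Squamous markers moved with the irradiation difference. Of the 26 measured, 24 were higher past the threshold in knockout and 15 in wild type, and 0 were lower. On unirradiated arrays 6 to 9 of them lay above the array median, against 26 on every irradiated knockout array and 21 to 26 on irradiated wild-type arrays. Many of them thus passed the filter on low values only through irradiated arrays, which favours higher over lower calls. Within the irradiated groups the order of Crabp2 followed the squamous mean: 10.70, 10.10 and 8.99 in knockout at squamous means of 12.31, 11.76 and 10.73, and 9.97, 9.49 and 8.60 in wild type at 11.76, 11.61 and 8.94. The adipocyte mean put the arrays in the same order, at 10.19, 9.63 and 8.15 in knockout and 10.39, 9.55 and 9.03 in wild type. Rarg also ran in that order. Aldh1a3 did so in knockout but not in wild type, where replicate 3 had 12.18 with the lowest squamous mean, and Rbp4 was at 9.97 on that array, its highest value of all 10. The part of squamous or adipose tissue in these differences was not tested. Past the threshold, 18 of 20 fibroblast markers were higher in knockout and 20 in wild type. Of 14 macrophage markers, 12 were higher in each genotype and 1 was lower in knockout. Endothelial markers were higher for 9 and 10 of 11, and absorptive colonocyte markers were lower for 11 and 10 of 18, in knockout and in wild type. For dendritic cells 3 and 2 of 9 were higher, for adipocytes 6 and 7 of 12 (with 1 lower in wild type), for striated muscle 2 and 6 of 16, for hair follicle and sebaceous gland 3 and 1 of 7, and for mesothelium 1 and 2 of 6. Of all genes tested, 14.0% were higher and 9.50% lower in knockout, and 15.8% higher and 8.34% lower in wild type. Striated muscle and mesothelium in knockout, and hair follicle and sebaceous gland in wild type, lie near those shares. Smooth muscle had 0 of 10 in both genotypes by limma, and goblet cell, enteroendocrine, and enteric neuron and glia markers had at most 1 in each direction.

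**Figure D4:**
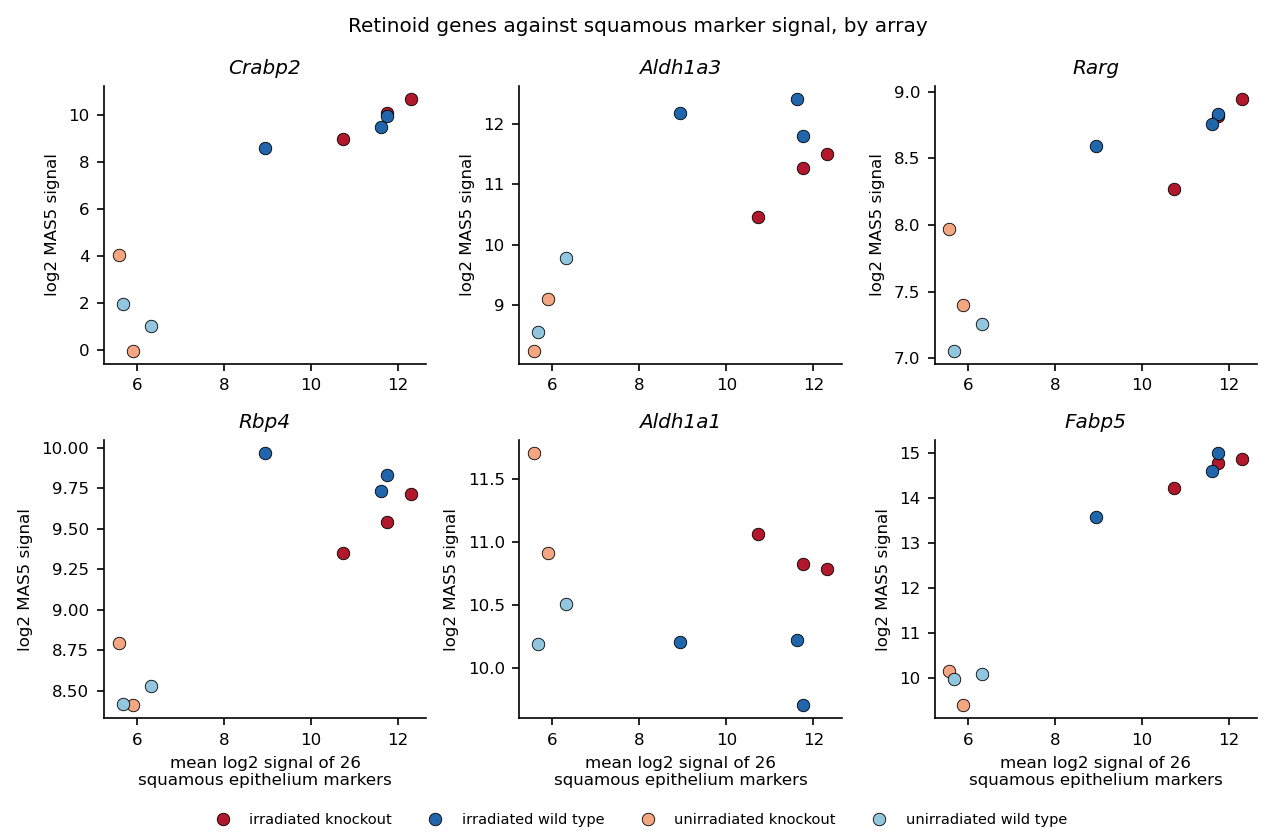
Log2 MAS5 signal of 5 of the genes and of Fabp5 (vertical axes) against the mean log2 signal of 26 squamous epithelium markers on the same array (horizontal axis), with 1 point per array coloured by group. Irradiated wild-type replicate 3, at a squamous mean of 8.94, had Crabp2 at 8.60 and Fabp5 at 13.57, the lowest of the irradiated arrays, and Rbp4 at 9.97, the highest.

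The genotype comparisons asked whether loss of Pdgfc altered these levels. After irradiation 0 of the 8 genes were past the threshold in limma, as were 0 of all 12568 genes (0.00%); at an unadjusted p under 0.05 there were 500 genes, 3.98% of all. Without irradiation 0 of the 8 were past the threshold, against 1.23% of all genes (0.422% higher and 0.804% lower in knockout) and 2082 genes at an unadjusted p under 0.05. The interaction, which tests whether irradiation acted differently in knockout and wild type, was past the threshold for 0 of the 8, against 0.207% of all genes (0.175% positive and 0.0318% negative) and 1311 genes at an unadjusted p under 0.05. Their interaction values lay between -0.58 for Rarg and 1.23 for Aldh1a2, whose SE was 1.81.

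Aldh1a1 and Aldh1a3 lay in opposite directions between genotypes. Aldh1a1 averaged 10.89 ± 0.15 in irradiated knockout and 10.04 ± 0.29 in irradiated wild type (SD, n = 3 each), and 11.31 ± 0.56 in unirradiated knockout and 10.35 ± 0.22 in unirradiated wild type (SD, n = 2 each). Every knockout array lay above every wild-type array of its condition. The difference was 0.85 ± 0.22 (SE) after irradiation and 0.96 ± 0.27 (SE) without it, and it lay between 0.68 and 0.94 and between 0.56 and 1.36 under the alternatives. Aldh1a7, the paralogue, was at 10.40, 9.19 and 9.64 in irradiated knockout and 8.96, 9.89 and 9.03 in irradiated wild type, and at 9.51 and 10.82 in unirradiated knockout and 8.86 and 8.82 in unirradiated wild type. Its groups overlapped after irradiation and were apart without it.

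Aldh1a3 averaged 11.08 ± 0.55 in irradiated knockout and 12.13 ± 0.31 in irradiated wild type (SD, n = 3 each), a difference of -1.05 ± 0.37 (SE). The other 2 probe sets gave -1.15 ± 0.42 (SE) and -1.16 ± 0.43 (SE), and on all 3 the groups were apart. With the sex pattern as a covariate the brightest gave -0.62. Without irradiation the groups overlapped on the brightest probe set, at 8.67 ± 0.60 in knockout and 9.17 ± 0.86 in wild type (SD, n = 2 each), a difference of -0.50 ± 0.46 (SE). On the other 2 probe sets they were apart, with knockout lower. These read 5.43 and 6.13 in knockout against 6.24 and 7.99 in wild type (-1.33 ± 0.52, SE), and 5.10 and 5.76 in knockout against 6.49 and 8.27 in wild type (-1.95 ± 0.53, SE), neither past the threshold. With the mean of the probe sets the difference was -1.26. Rbp4 was the third gene with separate groups after irradiation, at -0.31 ± 0.16 (SE). Of all genes tested, 8.42% had groups apart: 4.38% were apart and higher in irradiated knockout and 4.04% apart and lower, beside 1 (Aldh1a1) and 2 (Aldh1a3 and Rbp4) of the 8; none of these differences was past the threshold. Without irradiation Aldh1a1 and Rarg were apart and higher and Aldh1a2 apart and lower, where 47.8% of all genes were apart, 28.9% higher and 18.9% lower. The Xist-high arrays were all 3 of irradiated wild type and 1 of 3 of irradiated knockout, so sex and genotype ran partly together there. Cell type markers moved with genotype as well. All 16 striated muscle markers were apart and higher in unirradiated knockout, with array means of 9.17 and 8.75 in knockout against 4.71 and 4.75 in wild type. After irradiation their array means overlapped, at 10.73 to 12.58 in knockout and 5.02 to 11.76 in wild type. Of 14 macrophage markers, 7 were apart and lower in knockout after irradiation, with array means of 10.04 to 10.56 in knockout against 10.82 to 10.93 in wild type. Without irradiation 11 of the 14 were apart and lower and 1 apart and higher, with array means of 7.33 and 7.84 in knockout against 8.29 and 8.36 in wild type. By limma 0 markers of these lists were past the threshold in the genotype contrasts. Without irradiation 2 of 26 squamous markers were lower in knockout past the threshold, beside 0.804% of all genes. Of the 26, 6 were apart and higher and 8 apart and lower. Of 12 adipocyte markers 1 was higher past it, beside 0.422% of all genes, with 8 apart and higher and 1 apart and lower. After irradiation 0 squamous and 0 adipocyte markers were past it or apart. The part of these marker lists in the Aldh1a1, Aldh1a3 and Rbp4 differences was not tested.

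Other genes of the pathway were read from a list of 52, of which 47 were on the array and 39 were tested. In knockout 4 were higher and 4 lower after irradiation, and in wild type 7 were higher and 3 lower, with median log2 differences of -0.17 and 0.21. These counts lie near the shares over all genes. Of those, 14.0% were higher and 9.50% lower in knockout, and 15.8% higher and 8.34% lower in wild type. The list was chosen with earlier results of these data known. Its counts and adjusted p-values are therefore a description and support nothing further. The retinoic acid and fatty acid carrier Fabp5 was at 14.86, 14.22 and 14.77 in irradiated knockout, 14.99, 14.60 and 13.57 in irradiated wild type, 9.40 and 10.17 in unirradiated knockout, and 9.99 and 10.09 in unirradiated wild type. It rose by 4.83 ± 0.39 (SE, limma adjusted p = 1.18e-04) in knockout and by 4.35 ± 0.39 (SE, adjusted p = 3.01e-04) in wild type. FABP5 is abundant in keratinocytes. Like Crabp2, Fabp5 was lowest, among irradiated arrays, on wild-type replicate 3. The part of squamous or other tissue in its irradiation difference was not tested. Ppard, the nuclear receptor to which FABP5 is known to deliver its ligands, fell, with -1.23 ± 0.37 (SE, adjusted p = 0.0402) in knockout and -1.38 ± 0.37 (SE, adjusted p = 0.0257) in wild type; the call was kept in 11 of 21 alternatives in knockout and 16 of 21 in wild type.

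Among the enzymes that interconvert retinol and retinal, 2 of 16 tested rose in knockout, and 3 rose and 2 fell in wild type, counts that again lie near the shares over all genes. Rdh12 was at 9.63, 7.70 and 9.11 in irradiated knockout and 8.93, 8.20 and 6.63 in irradiated wild type, and at 2.01 and 2.24 in unirradiated knockout and 5.28 and 4.39 in unirradiated wild type. It was below the array median on all 4 unirradiated arrays, so the rise of 6.69 ± 0.75 (SE, limma adjusted p = 4.45e-04) in knockout and of 3.08 ± 0.75 (SE, adjusted p = 0.0167) in wild type has an uncertain size; with 64 added to the linear signals they were 2.94 and 1.77. Adh7, an alcohol dehydrogenase that oxidises retinol in upper digestive epithelium, rose in knockout by 2.42 ± 0.49 (SE, adjusted p = 0.00804). It too was below the array median on all 4 unirradiated arrays, and so passed the filter only through irradiated ones. Dhrs3, which returns retinal to retinol and is induced by retinoic acid, rose in wild type by 1.83 ± 0.34 (SE, adjusted p = 0.00566), and Rdh9 had -1.86 ± 0.58 (SE, adjusted p = 0.0428), a call kept in 9 of 21 alternatives. Rdh9 has close paralogues (Rdh1, Rdh7 and Rdh16) whose RNA its probe set may also bind.

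Of the storage and release genes 4 were tested, and of the breakdown genes 1. In knockout 0 of the 4 were past the threshold. In wild type 2 of the 4, Lrat and Lipe, were higher, beside 15.8% of all genes. Lipe, which also stands in the adipocyte list, rose by 1.69 ± 0.44 (SE, limma adjusted p = 0.0215), a call kept in 15 of 20 alternatives. Lrat, which esterifies retinol for storage, rose in wild type by 3.04 ± 0.86 (SE, limma adjusted p = 0.0295) from signals below the array median. It was past the threshold in 11 of 20 alternatives. Cyp26b1, which breaks retinoic acid down, was tested and not past the threshold, at 0.54 ± 0.55 (SE) in knockout and 1.23 ± 0.55 (SE) in wild type; Cyp26a1 did not pass the filter on low values. The retinal- and aldehyde-oxidising Aox1 rose by 1.51 ± 0.46 (SE, adjusted p = 0.0405) in knockout and 2.01 ± 0.46 (SE, adjusted p = 0.0133) in wild type; the knockout call was kept in 8 of 21 alternatives and the wild-type call in 18. Of the retinoid X receptors, Rxrb fell in knockout by 1.03 ± 0.30 (SE, adjusted p = 0.0351), a call kept in 14 of 21 alternatives, while Rxra had -0.03 ± 0.33 (SE) in knockout and 0.09 ± 0.33 (SE) in wild type.

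**Figure D5:**
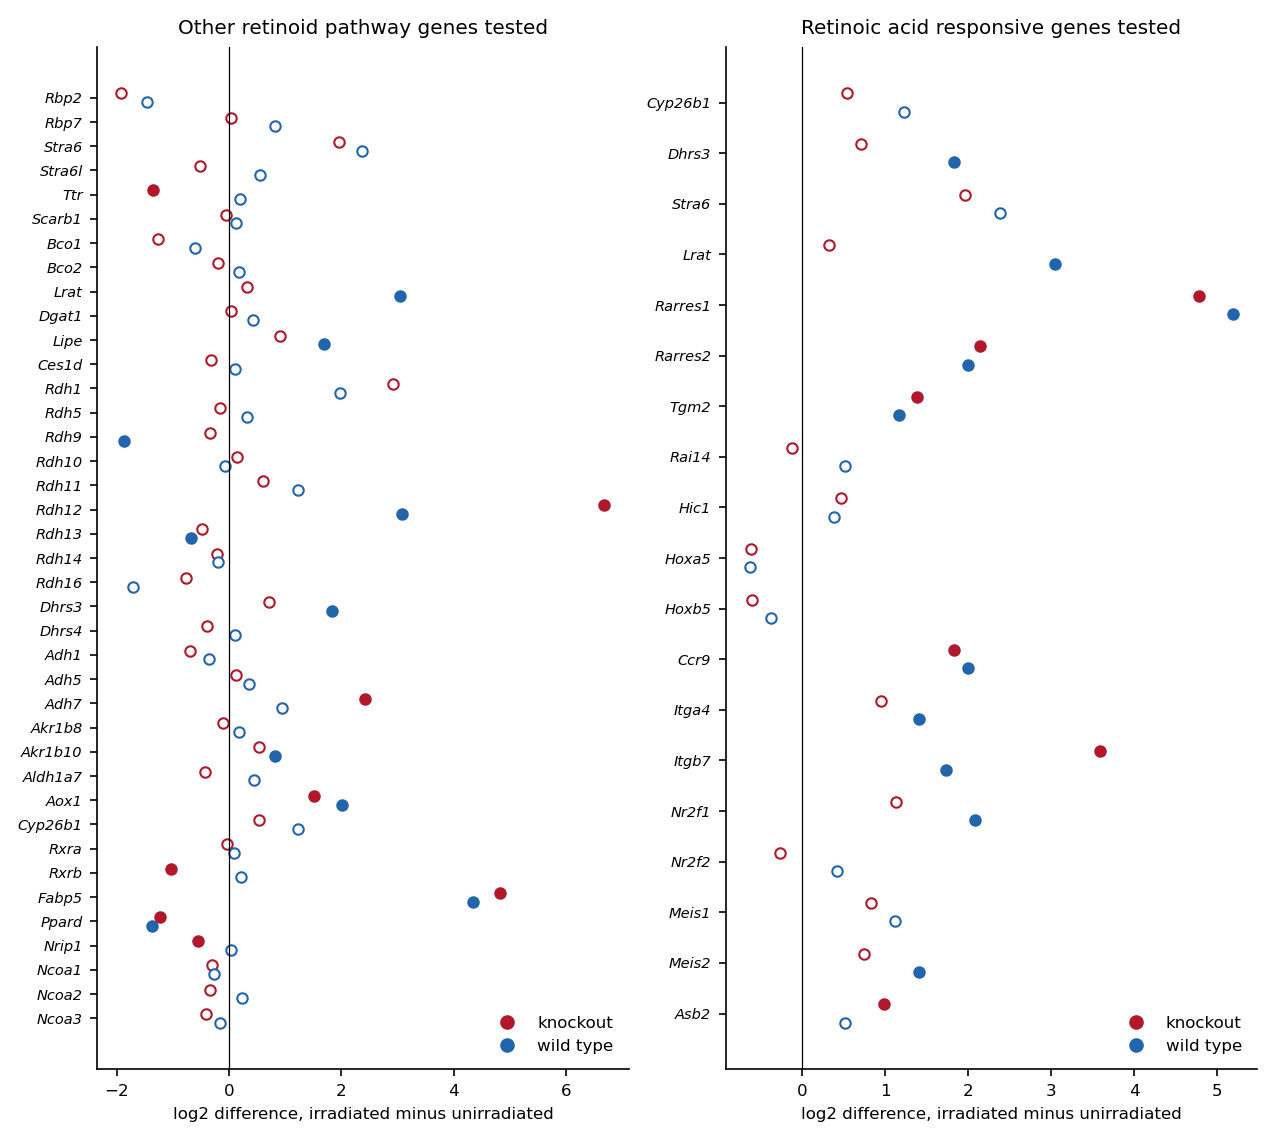
Log2 difference between irradiated and unirradiated tissue (horizontal axis) for 39 other retinoid pathway genes (left) and 19 retinoic acid responsive genes (right) that were tested, in knockout and in wild type; filled points were past the threshold in limma. Fabp5 and Rdh12 lie farthest to the right on the left side and Rarres1 on the right side, at 4.78 in knockout and 5.19 in wild type.

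Genes known in the mouse or in other mammals to respond to retinoic acid were read from a list of 28, of which 26 were on the array and 19 were tested; it shares 5 genes with the pathway list (Cyp26a1, Cyp26b1, Dhrs3, Stra6 and Lrat). After irradiation 6 of 19 were higher in knockout and 10 of 19 in wild type, and 0 were lower, beside 14.0% and 15.8% of all genes higher. The medians were 0.83 and 1.41. This list too was chosen with earlier results of these data known, so its counts and adjusted p-values are a description. Rarres1, Lrat, Nr2f1, Ccr9 and Itgb7 lay below the array median on every unirradiated array. They passed the filter on low values only through irradiated arrays, which favours higher over lower calls. Rarres1 rose by 4.78 ± 1.18 (SE, limma adjusted p = 0.0182) in knockout and by 5.19 ± 1.18 (SE, adjusted p = 0.0130) in wild type, and on wild-type replicate 3 it was at 6.26, against 11.81 and 9.19 on replicates 1 and 2. Rarres2, which encodes the chemoattractant chemerin, rose by 2.15 ± 0.23 (SE, adjusted p = 4.11e-04) and 2.0 ± 0.23 (SE, adjusted p = 6.78e-04), and with the mean of its probe sets it was not past the threshold in either genotype. The transglutaminase Tgm2 was at 12.16, 12.24 and 11.97 in irradiated knockout and 12.20, 12.43 and 12.28 in irradiated wild type, and at 10.63 and 10.84 in unirradiated knockout and 11.19 and 11.08 in unirradiated wild type. It rose in knockout by 1.39 ± 0.14 (SE, adjusted p = 2.71e-04). Its wild-type difference was 1.17 ± 0.14 (SE, adjusted p = 6.50e-04).

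The gut-homing genes Ccr9 (a chemokine receptor) and Itgb7 (an integrin subunit), which retinoic acid is known to induce in lymphocytes, were higher after irradiation in both genotypes. Ccr9 rose by 1.82 ± 0.52 (SE, limma adjusted p = 0.0307) in knockout and by 1.99 ± 0.52 (SE, adjusted p = 0.0215) in wild type. It lay above the array median on 3 arrays, all irradiated, and so passed the filter only through those groups; the call was kept in 14 of 20 alternatives in knockout and 15 of 20 in wild type. Itgb7 was at 7.83, 7.80 and 7.94 in irradiated knockout and 7.72, 8.57 and 8.16 in irradiated wild type, and at 4.23 and 4.32 in unirradiated knockout and 6.48 and 6.37 in unirradiated wild type. It rose by 3.58 ± 0.31 (SE, adjusted p = 1.63e-04) in knockout. In wild type the rise was 1.73 ± 0.31 (SE, adjusted p = 0.00479). Itgb7 was also lower in unirradiated knockout than in unirradiated wild type, at -2.15 ± 0.34 (SE, adjusted p = 0.0190), a call that 8 of 21 alternatives lost; it was below the array median on all 4 of those arrays. Macrophage markers were higher on the irradiated arrays. In unirradiated knockout 11 of 14 were apart from unirradiated wild type and lower, and 1 apart and higher. Of all genes, 18.9% were apart and lower and 28.9% apart and higher there. By limma 0 of the macrophage markers were past the threshold in that contrast. Their part was not tested, and no list of lymphocyte markers was read. Of the remaining responsive genes, Asb2 rose in knockout by 0.99 ± 0.23 (SE, adjusted p = 0.0144), and the orphan nuclear receptor Nr2f1 in wild type by 2.09 ± 0.59 (SE, adjusted p = 0.0294). The Asb2 call was kept in 16 of 21 alternatives and the Nr2f1 call in 14 of 21. Nr2f1 exceeded the array median only on irradiated knockout replicate 1 (7.66) and irradiated wild-type replicate 1 (7.76).

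Ttr, the plasma partner of RBP4, was the one gene of both lists with an interaction past the threshold. Its log2 signal was 11.22, 11.14 and 11.45 in irradiated knockout, 11.54, 11.44 and 11.69 in irradiated wild type, 12.60 and 12.64 in unirradiated knockout, and 11.24 and 11.48 in unirradiated wild type. The unirradiated knockout arrays stood above all others. Ttr was higher in unirradiated knockout than in unirradiated wild type by 1.26 ± 0.16 (SE, limma adjusted p = 0.00641), and it fell after irradiation in knockout by 1.35 ± 0.14 (SE, adjusted p = 3.43e-04). After irradiation the knockout and wild-type comparison called 0 of the 39 pathway genes and 0 of the 19 responsive genes. The smallest p-values there were those of Adh7, at 1.67 ± 0.44 (SE), and Rdh10, at -0.42 ± 0.14 (SE), both with an adjusted p of 1.0 in limma; of the responsive genes they were those of Asb2, at 0.67 ± 0.21 (SE), and Meis1, at 0.67 ± 0.40 (SE), also with an adjusted p of 1.0.

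For each of the 8 genes tested, the 3 genes with the most similar profile over the 10 arrays were found by the root mean square difference of log2 signals, each centred on its own mean. For Crabp2 these were Serpinb2 at 0.89 log2 units, Calml3 at 0.93 and Tmem45a at 1.01, where Crabp2 itself had an SD of 4.24 over the arrays. For Aldh1a3 (SD 1.53) they were Fscn1 at 0.32, Ms4a6d at 0.32 and Ccr2 at 0.34, and Fscn1 stands in the dendritic cell list. Rarg (SD 0.72) had Prrg1 at 0.11, Irak1bp1 at 0.13 and Pros1 at 0.13, and Rbp4 (SD 0.63) had Irak3 at 0.12, Dkk3 at 0.13 and Rhoj at 0.13. Aldh1a1 (SD 0.57) had Prdm6 at 0.20, Gstm1 at 0.25 and Kctd13 at 0.29. Rarb (SD 0.67) had 3110009E18Rik and Clec11a at 0.25 and Ahr at 0.28. Rara (SD 0.39) had Ppt2 at 0.18, Zbtb39 at 0.21 and Tinf2 at 0.21, and Aldh1a2 (SD 1.85) had Ifi209 at 0.70, Ifi207 at 0.89 and Cpxm1 at 0.91. All these profiles share the same 10 arrays and the irradiated against unirradiated split.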

How the data were processed

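Biotinylated cRNA from distal colorectum of 10 mice was hybridised to Affymetrix arrays, per the labels' protocols. The log2 values deposited by the authors are MAS5 signals, per the submitters' processing notes, which give no version. The log2 scale was judged from the numbers: after conversion to linear signal, the 2% trimmed mean was 500 on all arrays. No detection calls were used, and precision is limited by how many arrays each group has.

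No further normalization was applied. The platform annotation gave 1 gene for 34945 of 45101 probe sets, several for 932 and none for 9160, besides 64 controls; 34741 symbols were brought up to date through gene IDs (GRCm38.p6). Each gene was read from its brightest probe set by mean signal, and tested where 2 or more arrays exceeded their own median signal. One limma model (limma 3.58.1, R 4.3.3) held all 4 groups, with 6 residual degrees of freedom, a mean-dependent variance prior and Benjamini-Hochberg adjustment. It was tested on simulated data. Tables were made with Python 3.11.15. Numbers shared by replicates were not taken to pair arrays: deviations of 3 of 13 such pairs correlated above 0.1 (range -0.20 to 0.16). In groups of 2 arrays the deviations mirror each other, so these correlations cannot decide whether a number marks a shared batch.

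Genes and lists, 14 of them marker lists, were chosen with earlier results of these data known. The text names all 9 genes, their 3 most similar genes, and from the pathway and responsive lists up to 6 past the threshold per irradiation contrast (by size), all past it between genotypes, or else the 2 of smallest p. Lipe, Rxrb, Rxra, Cyp26b1, Aldh1a7 and the wild-type values of Ppard, Tgm2 and Itgb7 were added after being seen. Alternatives were quantile normalization, pseudocounts of 16 and 64, no filter, no variance trend, weighted arrays, averaging probe sets, testing every probe set, a replicate block, a sex covariate, fitting only 2 groups, and omitting each array in turn.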

Additional observations from a re-analysis of the deposited data

Results flagged for a closer look

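Ttr, the plasma partner of RBP4, stood out because its irradiation difference was not the same in knockout and wild type, by a test of that difference, with an interaction of -1.55 ± 0.20 (SE, limma adjusted p = 0.0172). It was past the threshold in 13 of 20 alternatives; it was not without irradiated knockout replicate 1, either unirradiated knockout replicate or unirradiated wild-type replicate 1, nor with no variance trend, the replicate block or the sex covariate. No cause was tested.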

How the results depend on the processing

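Of 832 alternative values over 40 contrasts of the 8 tested genes, 805 moved by less than the spread between replicates, 27 moved further and 0 of the called ones changed sign. Many of the 805 could not move. Dropping the filter or the variance trend, testing every probe set or fitting only 2 groups leaves a difference of group means unchanged. So does omitting an array of a group outside the contrast. The count is therefore not a measure of stability. Testing every probe set gave 5148 calls for irradiation in knockout (2957 as reported), 4870 in wild type (3028), 276 for genotype without irradiation (154) and 49 for the interaction (26). The sex covariate gave 1706 calls in knockout, 16 in wild type with 0 of the 8 genes, and 4 for the interaction. A pseudocount of 64 gave 16 interaction calls and no variance trend 10. With the replicate block there were 2075 calls in knockout, with 3 of the 8 genes (Rarg lost), 1995 in wild type, 70 for genotype without irradiation and 3 for the interaction. Whether the replicate numbers mark a shared batch is not known. Leaving out 1 array at a time gave 1189 (without unirradiated knockout replicate 1) to 3596 calls and 2 to 5 of the 8 genes in knockout, and 1323 (without unirradiated wild-type replicate 1) to 3469 calls and 4 to 5 of the 8 in wild type. It gave 0 to 3 genotype calls after irradiation, 41 to 255 without it and 14 to 35 interaction calls. The causes were not tested. Signals below the array median, as for Crabp1, Aldh1a2 and unirradiated Crabp2, limit the size of their differences.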
